A study of Mus musculus with 4 samples.

Results

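The exons and the introns of a gene were read as a pair in 15709 genes of C3H10T1/2, a mouse cell line used as mesenchymal stem cells (MSCs). These are the genes whose exons and whose introns both have a methylation level in all 4 libraries, of 25259 genes with an exon or an intron level in any library. Exon levels in all 4 libraries exist for 20401 genes and intron levels for 19757. A level is the fraction of CpG cytosines read as methylated, from 0 to 1, with a single value per gene for all its exons and another for all its introns. Levels chose the genes only by being listed, so their sizes played no part in the choice.

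The question behind the study was which genes depend on DNMT1, the enzyme that copies methylation onto new DNA strands, when MSCs turn into osteoblasts (OB). An siRNA against DNMT1 (siDNMT1) or a control siRNA without a target (NC) was transfected, for 48 h by the labels, and the cells were then left uninduced or kept for 3 days in OB medium with ascorbic acid, β-glycerophosphate and dexamethasone. The 4 libraries are thus NC uninduced, siDNMT1 uninduced, NC OB and siDNMT1 OB, all from the same line, with 1 library per condition. No difference between conditions has a replicate check, and no p-value was computed. The libraries list between 155398 (siDNMT1 OB) and 159705 regions of all kinds. Read counts are not part of the values, so the depth is unknown and a single level has no interval. The data hold no RNA, so neither the knockdown nor the cell type could be checked by expression. Promoter levels in the NC uninduced library ran from 0.0140 at Vim to 0.799 at Thy1 in the 6 of 9 mesenchymal marker genes that had one, and from 0.151 at Snap25 to 0.674 at Hnf4a in 5 of 9 markers of neurons, liver and blood, so the ranges overlapped.

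In mammals, CpG islands at gene starts are mostly free of methylation, while the transcribed body of active genes is mostly methylated. Exons hold coding sequence, which stays rich in CpGs under selection, whereas introns have lost many CpGs through the decay of methylated cytosine to thymine. An exon level and an intron level of the same gene therefore sample different stretches, and the first exon and the start of the first intron often share the island of the promoter. Among the genes here, exons held a median of 23.7 CpGs per kb and introns 11.2, and exons were denser in 94.6% of them, counted on the GRCm38 sequence with GENCODE vM21 gene models.

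Exons and introns of the same gene differed far more from each other than either differed between libraries. In the NC uninduced library the median exon level was 0.337 (quartiles 0.0529 and 0.60) and the median intron level 0.398 (0.159 and 0.575). The siDNMT1 uninduced library gave 0.333 and 0.390, the NC OB library 0.320 and 0.387, and the siDNMT1 OB library 0.306 and 0.371. The siDNMT1 OB library thus had the lowest median in both parts. Taken gene by gene, the exon level minus the intron level (the gap) had a median close to 0, -0.00623 in the NC uninduced library (95% interval from order statistics -0.00758 to -0.00476) and between -0.00681 and -0.00572 in the others. This interval treats genes as independent and carries no replicate error. Its sign did not hold in every subset: among the 2339 genes with 1 annotated transcript the median was above 0 in each library, 0.00141 in NC uninduced cells.

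A median near 0 hid large gaps in both directions. Exons lay above introns in 45.6% of genes in the NC uninduced library and in 45.1% to 45.9% in the others, and the lower and upper quartiles of the gap in the NC uninduced library were -0.164 and 0.118. Exon and intron levels correlated with Pearson's r of 0.494 across the 15709 genes of that library (Spearman's rho 0.503), which describes genes of 1 library and not replicates. The gap exceeded 0.1 in favour of exons in all 4 libraries in 3732 genes (23.8%) and in favour of introns in 4382 (27.9%).

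**Figure D1:**
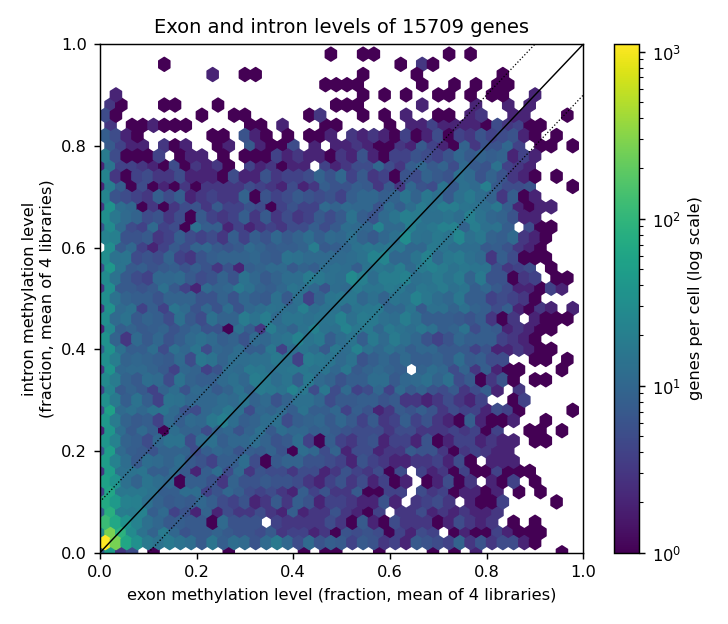
Exon level (x axis) against intron level (y axis) of the 15709 genes, as fractions and means of the 4 libraries, with the colour giving the number of genes per cell on a log scale, a solid line of equal levels and dotted lines at a gap of 0.1. The densest cell lies at the origin, where both levels are under 0.1 in 2440 genes, and a column of genes with low exon levels runs up the left edge.

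The gap of a gene differed little between the libraries. Between any pair of libraries the gap correlated across genes with r from 0.975 to 0.988. Its SD over the 4 libraries had a median of 0.0182 over genes, against an SD of 0.261 of the gap over genes. The sign was the same in all 4 libraries in 13718 genes (87.3%), and in only 37 genes (0.236%) did the gap pass 0.1 in opposite directions in 2 libraries. The gap thus moved less between libraries than it differed between genes.

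Sorted by mean level, 2440 genes (15.5%) were low in both parts, with levels under 0.1, and 2976 (18.9%) were high in both, with levels of at least 0.5. The crossed classes were smaller and unequal: 789 genes (5.02%) had low exons and high introns, and 247 (1.57%) had high exons and low introns. The gene start lay within 500 bp of an island in 86.8% of the first crossed class and in 68.8% of the second, against 41.7% of the genes high in both and 87.7% of the genes low in both. The promoter level, which the sorting did not use, had a median of 0.0250 in genes with low exons and high introns, 0.0402 in genes with high exons and low introns, 0.481 in genes high in both and 0.0199 in genes low in both. A low promoter therefore stood beside both crossed forms. Promoter entries can share CpGs with the exon or intron entries, so the promoter level need not be a separate reading. In Bcat2, for example, promoter and intron levels were both 0.0182 in NC uninduced cells. Intron length differed between them, with a median of 38.6 kb in genes with low exons and high introns and 9.42 kb in genes with high exons and low introns.

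The sequences of 4 genes with gaps among the largest show the stretches of their coding exons and introns with the most CpGs. For each gene the 120 bases with the most CpGs were taken from its coding exons and from its introns. They are given on the gene's strand, 5′ to 3′, with every CG in capitals. Bases annotated as untranslated in any of its transcripts were left out of the coding exons, and exons of any gene out of the introns. The exon level also covers untranslated exons, so a coding stretch need not hold the CpGs behind that level. Sequence and positions are from GRCm38, the assembly of mm10. Such a stretch has no level of its own in the data, and its part of the gene has 1 level for all exons or all introns. Kin and Zfp316 had methylated exons and unmethylated introns, and Ankrd42 and Phlpp1 the reverse.
Kin coding exon, chr2:10092043-10092162, plus strand: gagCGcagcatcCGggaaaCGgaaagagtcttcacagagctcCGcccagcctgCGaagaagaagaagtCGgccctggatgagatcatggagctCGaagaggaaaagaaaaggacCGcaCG
Kin intron, chr2:10080762-10080881, plus strand: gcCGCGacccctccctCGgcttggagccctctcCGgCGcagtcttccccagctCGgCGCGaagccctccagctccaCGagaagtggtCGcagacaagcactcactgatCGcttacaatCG
Zfp316 coding exon, chr5:143253753-143253872, minus strand: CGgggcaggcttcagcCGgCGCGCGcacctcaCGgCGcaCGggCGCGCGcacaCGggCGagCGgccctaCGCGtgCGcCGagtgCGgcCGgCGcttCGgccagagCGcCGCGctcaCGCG
Zfp316 intron, chr5:143269719-143269838, minus strand: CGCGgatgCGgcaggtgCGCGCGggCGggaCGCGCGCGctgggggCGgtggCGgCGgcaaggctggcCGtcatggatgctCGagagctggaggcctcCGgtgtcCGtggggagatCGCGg
Ankrd42 coding exon, chr7:92631504-92631623, minus strand: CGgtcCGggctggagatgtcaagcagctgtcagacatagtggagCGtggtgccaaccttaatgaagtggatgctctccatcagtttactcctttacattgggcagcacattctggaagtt
Ankrd42 intron, chr7:92604377-92604496, minus strand: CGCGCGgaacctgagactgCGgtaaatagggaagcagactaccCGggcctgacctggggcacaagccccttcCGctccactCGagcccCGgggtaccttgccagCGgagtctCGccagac
Phlpp1 coding exon, chr1:106172070-106172189, plus strand: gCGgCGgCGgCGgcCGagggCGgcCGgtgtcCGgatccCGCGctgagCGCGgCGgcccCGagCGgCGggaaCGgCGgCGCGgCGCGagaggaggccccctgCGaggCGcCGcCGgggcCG
Phlpp1 intron, chr1:106300070-106300189, plus strand: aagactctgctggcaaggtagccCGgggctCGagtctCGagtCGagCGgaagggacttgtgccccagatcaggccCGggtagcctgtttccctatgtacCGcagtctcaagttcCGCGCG

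The stretches with the most CpGs did not lie at the same distance from the start. The intron stretches of Kin and Zfp316 began 169 and 184 bases after the start of the gene and held 12 and 20 CpGs, and their coding exon stretches began 11450 and 16150 bases in, with 9 and 27 CpGs. The coding exon stretch of Phlpp1 began 318 bases in and held 27 CpGs, against 10 in its intron stretch 128318 bases in. Ankrd42 held 3 CpGs, of 129 in all its exons, in its coding stretch 5519 bases in, and 10 in an intron stretch 32646 bases in. Where a stretch lies in a listed island, the island has its own level. The Zfp316 exon stretch lies in an island of 2253 bp (chr5:143253003-143255255) with levels of 0.924, 0.923, 0.924 and 0.912 in NC uninduced, siDNMT1 uninduced, NC OB and siDNMT1 OB cells. The island at the start of the same gene, of 633 bp, which holds the intron stretch, had levels between 0.0142 and 0.0169. The Phlpp1 exon stretch, with as many CpGs as that of Zfp316, lies in an island with levels between 0.0162 and 0.0202. The 2 equally dense coding stretches thus lie in islands at opposite ends of the scale, and the low one is at the start of its gene.

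The same held for islands over all the genes. Islands within 500 bp of the start of 10358 genes had a median level of 0.0202, and 75.7% were under 0.1. Islands wholly inside a gene, at least 1000 bp from any annotated transcript start and with over 50% of their length in its exons, numbered 829 and had a median of 0.767. Of these, 75.4% were at 0.5 or above and 5.43% under 0.1. The 241 internal islands that touched no exon had a median of 0.284, with 30.7% at 0.5 or above and 26.1% under 0.1. In genes with high exons and low introns, the island at the start had a median of 0.0191 (169 genes) and the 29 internal exonic islands one of 0.863. In genes high in both parts the 278 internal exonic islands had a median of 0.830. Islands lie within the exons or introns counted, so their levels are part of the gene's levels and not a separate measurement.

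Genes without any listed island in exons or introns (3805) had higher exons than introns, with medians of 0.564 and 0.512 and a median gap of 0.0340. With islands in the exons only (2608 genes) the medians were 0.193 and 0.412, and with islands in the introns only (250 genes) they were 0.519 and 0.391. The part that held the island was thus the lower one in both cases. With islands in both (9036 genes) the medians were 0.230 and 0.314. The exon median fell steadily with the number of CpGs within 500 bp of the start, from 0.526 in the fifth of genes with 0 to 21 CpGs to 0.145 in the fifth with 84 to 193, and the intron median from 0.465 to 0.306. The share of genes with exons above introns went from 57.7% to 36.0% over the same 5 groups. With total intron length, the intron median rose from 0.264 in genes with up to 5.17 kb of introns to 0.458 in genes with 68.8 kb or more, while the exon median stayed between 0.302 and 0.357. The median gap went from 0.00362 to -0.0685. Spearman's rho of the gap with both features was weak, -0.162 for CpGs at the start and -0.176 for intron length.

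**Figure D2:**
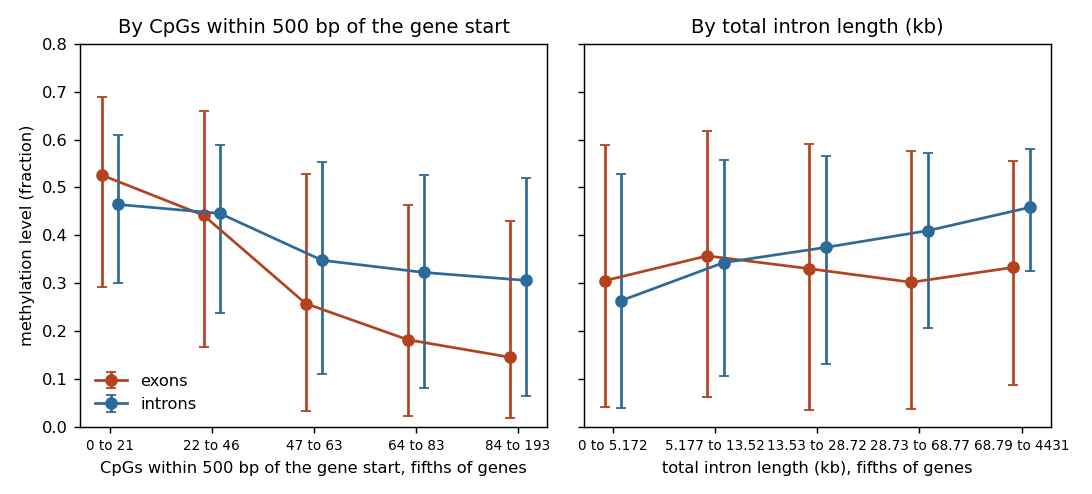
Median methylation level (y axis, fraction, mean of 4 libraries) of exons and introns in 5 equal groups of genes by CpGs within 500 bp of the gene start (left) and by total intron length in kb (right), with bars from the lower to the upper quartile. Exons drop below introns as CpGs at the start increase, and introns rise with intron length while exons do not.

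The 6 protein-coding genes with the largest gap in favour of exons were Ik, Kin, Zfp316, Ankrd9, Bcat2 and B3gat3, each with at least 20 CpGs in either part. Ik, a splicing factor (chr18:36744656-36757639), had exon levels of 0.909, 0.864, 0.910 and 0.902 in NC uninduced, siDNMT1 uninduced, NC OB and siDNMT1 OB cells and intron levels of 0.0168, 0.0195, 0.0231 and 0.0222. Kin, which encodes a zinc finger protein that binds DNA and RNA (chr2:10080593-10092806), had 0.897, 0.880, 0.893 and 0.872 in exons and between 0.0212 and 0.0298 in introns. Zfp316 (chr5:143249697-143270022), a zinc finger gene, had 0.892, 0.894, 0.889 and 0.884 in exons and between 0.0403 and 0.0575 in introns. These genes were chosen by the smallest gap of the 4 libraries, so a wide gap in every library follows from the choice. Ankrd9, an ankyrin repeat gene with only 28 intronic CpGs, had exon levels between 0.858 and 0.880. Bcat2, the mitochondrial aminotransferase of branched-chain amino acids, had exon levels between 0.860 and 0.875. B3gat3, a glucuronyltransferase that builds the linker of proteoglycans, had exon levels between 0.842 and 0.865 and intron levels between 0.0114 and 0.0201. In all 6 the smallest gap of the 4 libraries was at least 0.825. Where a promoter level existed, in 5 of the 6, it was under 0.1 in every library, with the highest at 0.0266 in Zfp316. Promoter and intron levels of Bcat2 were equal in NC uninduced, NC OB and siDNMT1 OB cells, at 0.0182, 0.0224 and 0.0166. Its promoter and intron entries thus do not give separate readings there.

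In the other direction stood Ankrd42, Phlpp1, Usp38, Dtx4, Adat1 and Foxf2. Ankrd42, another ankyrin repeat gene (chr7:92581723-92637142), had exon levels of 0.0108, 0.00804, 0.0103 and 0.0119 and intron levels of 0.871, 0.876, 0.871 and 0.873 in the same order of libraries. Phlpp1, a phosphatase that acts on AKT (chr1:106171752-106394250), had exon levels between 0.0165 and 0.0227 and intron levels of 0.880, 0.90, 0.864 and 0.862. Usp38, a deubiquitinase (chr8:80980733-81014928), had exon levels between 0.0318 and 0.0396 and intron levels between 0.874 and 0.912. As above, a wide gap in every library was the condition for choosing these genes. Dtx4, a ubiquitin ligase of the Notch pathway, and Foxf2, a forkhead transcription factor, each have 1 annotated transcript, so their exons and introns share no sequence in the annotation. Their intron levels were between 0.860 and 0.897 and between 0.869 and 0.886. Adat1, a tRNA-editing deaminase, had intron levels between 0.839 and 0.856. Of the 5 with a promoter level, the other 4 were under 0.1 in every library, and the promoter of Foxf2 was at 0.403, 0.406, 0.320 and 0.279, while its exons stayed between 0.0438 and 0.0557.

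**Figure D3:**
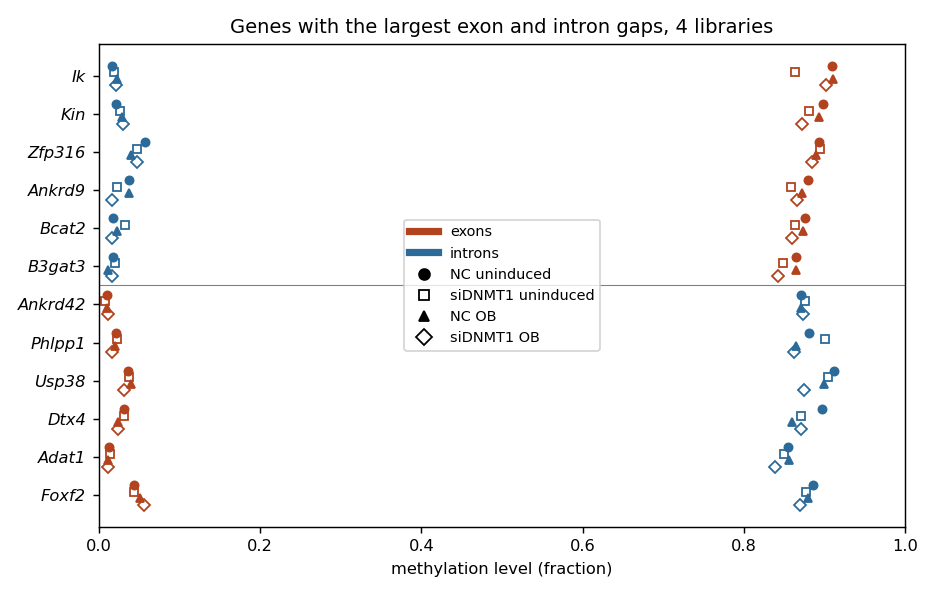
Methylation level (x axis, fraction) of exons and introns in each of the 4 libraries for the 6 genes with the largest gap in favour of exons (above the line) and of introns (below it), with the symbol giving the library. All points lie under 0.1 or above 0.8, and the libraries lie close together within each part. The genes were chosen by the smallest gap of the 4 libraries, so the distance between the parts follows from the choice.

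With siDNMT1, both parts of the gene were slightly lower, and introns slightly more so than exons. Before induction the median change, siDNMT1 minus NC, was -0.00165 in exons (95% interval from order statistics -0.00189 to -0.00143) and -0.00422 in introns (-0.00452 to -0.00389), with 55.7% of exons and 62.3% of introns lower. In OB cells it was -0.00632 in exons (-0.00678 to -0.00582) and -0.0124 in introns (-0.0128 to -0.0119), with 66.4% and 74.0% lower. Gene by gene, the exon change minus the intron change had a median of 0.00142 before induction and 0.00263 in OB cells. The change in OB cells was below the uninduced change in 61.4% of exons and 64.4% of introns. These medians are changes of the deposited fractions. Each library was also centred on its own median over the exons or introns with a level in all 4 libraries. The medians then became 0.00110 in exons and 0.00252 in introns before induction, and 0.00673 and 0.00395 in OB cells. The exon change minus the intron change became -0.00257 and -0.000674. Centred values are changes relative to the median entry of each library, so their signs do not reverse the fall of the fractions. Genes with an exon level only (4692) or an intron level only (4048) had medians of -0.00254 and -0.00503 before induction and -0.00846 and -0.0158 in OB cells.

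OB induction without knockdown gave changes of the same order. Between the NC libraries the median change, OB minus uninduced, was -0.00447 in exons and -0.00557 in introns, and between the siDNMT1 libraries -0.00994 and -0.0132. Each of the 4 comparisons shares a library with 2 of the others, so their values are not independent of one another. The NC pair also differs by 2 libraries of separate conditions, and the difference between libraries of the same condition is not measured here.

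Few genes changed by at least 0.1. Before induction, 127 exons fell (0.809%) and 101 rose (0.643%), and 110 introns fell (0.70%) and 75 rose (0.477%), whereas over all 151644 deposited regions 1.58% fell and 1.33% rose. In OB cells 221 exons fell (1.41%) and 112 rose (0.713%), and 191 introns fell (1.22%) and 78 rose (0.497%), against 2.55% and 1.39% of all regions. Between the NC libraries 201 exons (1.28%) and 144 introns (0.917%) fell and 112 (0.713%) and 99 (0.630%) rose, against 1.94% and 1.61%. Between the siDNMT1 libraries 405 exons (2.58%) and 358 introns (2.28%) fell and 161 (1.02%) and 131 (0.834%) rose, against 3.27% and 1.77%. In each comparison and direction the share in these exons and introns lay below that of all regions, which also hold islands, shores, promoters, UTRs and repeats.

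The absolute size of the fall was larger at higher levels, in exons and introns alike. Entries were placed in 5 classes by their mean over the 4 libraries. The changes are not relative to the level, so entries in the lowest class had little room to fall. In OB cells the median change with siDNMT1 was -0.000244 in exons with a mean under 0.1, -0.00871 from 0.1 to 0.25, -0.0127 from 0.25 to 0.5, -0.0182 from 0.5 to 0.75 and -0.0193 above 0.75. In introns the medians were -0.000677, -0.00990, -0.0162, -0.0214 and -0.0221. Before induction the order was the same and the steps smaller, from 0.000648 to -0.00761 in exons and from 0.000221 to -0.00831 in introns. Of the most methylated entries, 86.7% of exons and 88.1% of introns were lower with siDNMT1 in OB cells.

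Induction in NC cells had another profile. There the largest median falls were at intermediate levels, -0.0148 and -0.0162 in exons from 0.1 to 0.25 and from 0.25 to 0.5, and -0.0131 and -0.0103 in introns. Above 0.75 the medians were -0.00129 in exons and 0.000185 in introns, with 53.5% and 49.6% lower. In siDNMT1 cells the median change with induction was lowest, at -0.0242, in exons from 0.25 to 0.5, and above 0.75 it was -0.0140 in exons and -0.0131 in introns. The profile over levels thus differed between knockdown and induction. In both induction comparisons the largest median fall in exons was at 0.25 to 0.5. In introns it was at 0.1 to 0.25, but in siDNMT1 cells with almost no peak. There the intron medians were -0.0196 from 0.1 to 0.25, -0.0192 from 0.25 to 0.5 and -0.0189 from 0.5 to 0.75.

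**Figure D4:**
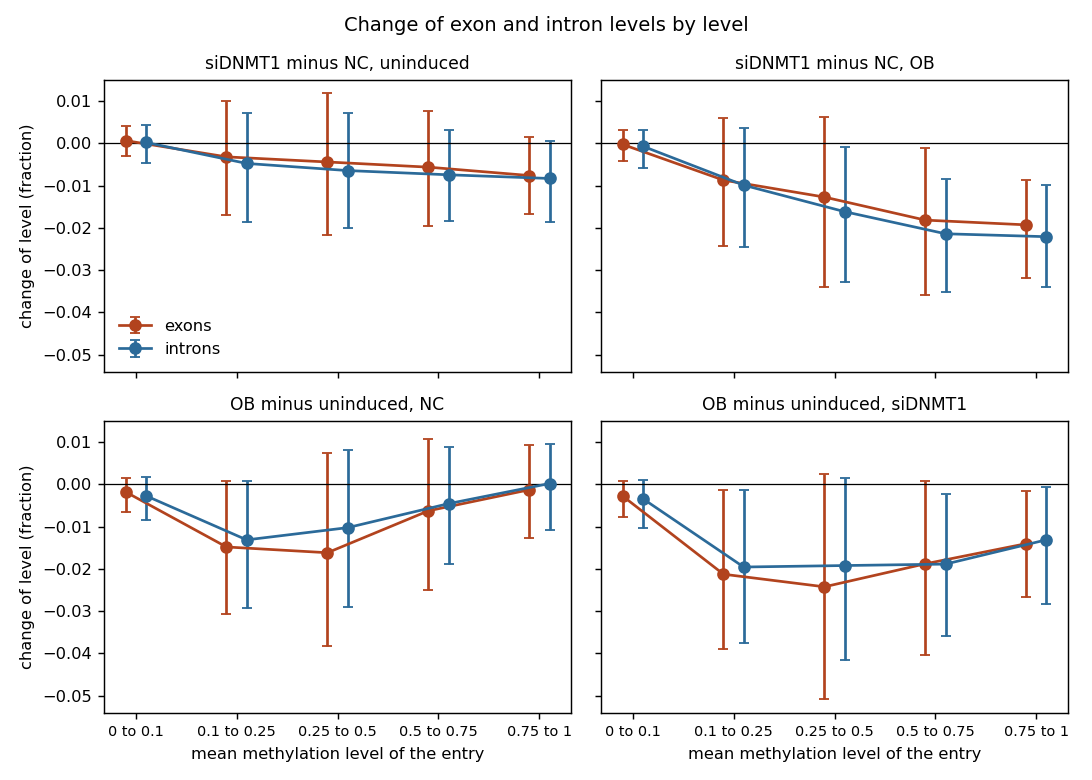
Median change of level (y axis, fraction) of exons and introns in 5 classes of mean level (x axis) for the 4 comparisons, with bars from the lower to the upper quartile. With siDNMT1 the medians descend from about 0 in the lowest class to the highest class, and between the NC libraries they are lowest at 0.1 to 0.5 and return to about 0 above 0.75.

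Exons and introns were not spread alike over these classes, since 4844 exons and 3241 introns had a mean under 0.1. In the 2976 genes high in both parts, the median change in OB cells was -0.0185 in exons and -0.0209 in introns, and before induction -0.00618 and -0.00666, so that the medians of the parts differed by less there than over all genes. In the 789 genes with low exons and high introns the exons changed by -0.000693 and the introns by -0.0211 in OB cells. In the 247 genes with high exons and low introns the exons changed by -0.0157 and the introns by -0.00163. The low part of both crossed classes had little room to fall. Internal exonic islands, which are mostly methylated, had a median change of -0.0146 in OB cells and -0.00493 before induction.

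Within a gene the change of the exons said little about the change of the introns. Both parts moved the same way in 56.6% of genes before induction (95% Wilson interval 55.8% to 57.4%, over genes taken as independent) and in 64.0% in OB cells (63.2% to 64.7%). Exons were lower in 55.7% of genes and introns in 62.3% before induction, and in 66.4% and 74.0% in OB cells. With falls this frequent, parts unrelated within genes would also move the same way more often than not. The share expected from that was not computed. The changes correlated across genes with r of 0.0384 and 0.111, and Spearman's rho of 0.119 and 0.20. In genes with 1 annotated transcript, where no exon of the annotation is an intron of another transcript, r was -0.0914 and 0.0164 and the shares were 51.4% and 58.5%. In 74 genes the exon and intron levels were identical in all 4 libraries and in 112 in at least 1 library, of which 3 have 1 annotated transcript. The exon and intron entries of some genes therefore can rest on the same CpGs. Each gene named for a shared change below was checked for identical levels only. A partial sharing of CpGs in genes with several transcripts would not show in that check.

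Of the 15709 genes, both parts fell by at least 0.1 in 2 before induction and in 17 in OB cells, and both rose in 7 and 6. Over all 151644 deposited regions, 1.58% fell before induction and 2.55% in OB cells, and 1.33% and 1.39% rose. Those are shares of single regions and not of pairs. Between the NC libraries 11 genes had both parts lower and 7 both higher, and between the siDNMT1 libraries 38 and 8. Before induction the genes with both parts lower were Prnp, the prion protein gene, and Pgr15l, an X-linked gene of a G protein-coupled receptor. Prnp had exon levels of 0.506, 0.347, 0.535 and 0.419 and intron levels of 0.773, 0.60, 0.887 and 0.735 in NC uninduced, siDNMT1 uninduced, NC OB and siDNMT1 OB cells. Both siDNMT1 libraries were below their NC libraries in both parts of Prnp, by 0.116 to 0.174. Pgr15l had exon levels of 0.460, 0.258, 0.354 and 0.487, so its exons were lower with siDNMT1 before induction and higher in OB cells.

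Of the genes with both parts higher with siDNMT1 before induction, 6 were protein-coding with at least 20 CpGs in either part, and the first 4 by the smaller change are given. Cdk16, an X-linked cyclin-dependent kinase gene, had exon levels of 0.471, 0.598, 0.60 and 0.560 and intron levels of 0.401, 0.686, 0.661 and 0.612. Atp5c1, the gene of an ATP synthase subunit, had 0.379, 0.492, 0.515 and 0.607 in exons and 0.596, 0.732, 0.685 and 0.702 in introns. In both genes the NC uninduced library was the lowest of the 4 in both parts. Psme3, a proteasome activator gene, had exon levels of 0, 0.147, 0.0714 and 0.075 and intron levels of 0, 0.118, 0 and 0.05. Its parts were thus equal, at the lower limit, in the NC uninduced library, and its exons differed little between the OB libraries. Serpinc1, the antithrombin gene, had exon levels of 0.708, 0.871, 0.745 and 0.80 and intron levels equal to them in 3 libraries and at 0.879 in siDNMT1 uninduced cells. Its pair of entries thus does not give separate readings.

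In OB cells the 4 genes ranked first among 12 with both parts lower were 1500011B03Rik, Il1rl2, Ces1g and Smpx. 1500011B03Rik had exon levels of 0.333, 0.20, 0.333 and 0.0580 and intron levels of 0.764, 0.726, 0.769 and 0.535, with siDNMT1 OB the lowest in both. Ces1g, a carboxylesterase gene with 1 annotated transcript, had 0.40, 0.468, 0.564 and 0.40 in exons and 0.631, 0.560, 0.554 and 0.314 in introns. Smpx, an X-linked gene of a small muscle protein, had 0.406, 0.283, 0.375 and 0.248 in exons and 0.565, 0.531, 0.487 and 0.304 in introns. The siDNMT1 OB library was the lowest or tied for the lowest in both parts of these 3 genes. Il1rl2, the gene of the receptor for IL-36, had the same level in exons and introns in each library (0.738, 0.744, 0.815 and 0.646).

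Among genes with both parts higher in OB cells, Nudt11, an X-linked Nudix hydrolase gene with 1 annotated transcript, had exon levels of 0.394, 0.438, 0.451 and 0.673 and intron levels of 0.741, 0.641, 0.542 and 0.889. St6galnac1, a sialyltransferase gene, had exon levels of 0, 0.10, 0 and 0.167 and intron levels of 0.545, 0.50, 0.20 and 0.667. Kcnj5, the gene of a potassium channel, had 0.355, 0.384, 0.342 and 0.491 in exons and 0.393, 0.369, 0.373 and 0.564 in introns. In these 3 genes the siDNMT1 OB library was the highest in both parts. The predicted gene Gm10717 had identical levels in exons and introns in both OB libraries, 0.438 with NC and 0.889 with siDNMT1.

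Over all 15709 genes, the parts changed in opposite directions by at least 0.1 each in 12 before induction and in 10 in OB cells. Opposite changes of at least 0.05 in each part were found in 39 protein-coding genes before induction and in 31 in OB cells, with at least 20 CpGs in either part. Single regions form no such pairs, so these counts have no share over all regions beside them. Mybbp1a, the gene of a MYB-binding protein, led this list before induction and was among the first 3 in OB cells. Its exon levels were 1 (listed at the upper limit), 0.690, 0.679 and 0.875 and its intron levels 0, 0.524, 0.571 and 0.30. The NC uninduced library alone placed it at both ends of the scale. Pla2g4d, a phospholipase gene, had 0.708, 0.455, 0.574 and 0.443 in exons and 0, 0.290, 0.239 and 0.150 in introns. H2-Eb2, a class II histocompatibility gene, had 0.05, 0.25, 0.20 and 0.10 in exons and 0.567, 0.409, 0.467 and 0.467 in introns. Sh2d6, which encodes a protein with an SH2 domain, had 0.780, 0.512, 0.820 and 0.50 in exons and 0.50, 0.571, 0.692 and 1 in introns. Lypd4, of the Ly6 family, had 0.357, 0.276, 0.714 and 0.429 in exons and 0.671, 0.745, 0.567 and 0.771 in introns.

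Changes of at least 0.1 were most frequent where a part has few CpGs. Of the fifth of genes with the fewest exonic CpGs (2 to 53), 2.74% of exons changed in either direction before induction and 4.38% in OB cells, against 0.830% and 0.798% of the fifth with the most (166 to 2769). In introns the shares were 2.73% and 4.19% with up to 69 CpGs and 0.128% and 0.0638% with 658 CpGs or more. The SD of the intron change in OB cells went from 0.0474 to 0.0191 over these groups. The median intron change in OB cells was -0.00672 with the fewest CpGs and -0.0180 with the most. The median exon change had no such order, with -0.00732 in the group with the fewest, -0.00401 in the next and -0.0100 in that with the most. CpGs were counted on the reference and not in the reads, and how far depth accounts for these shares was not tested.

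**Figure D5:**
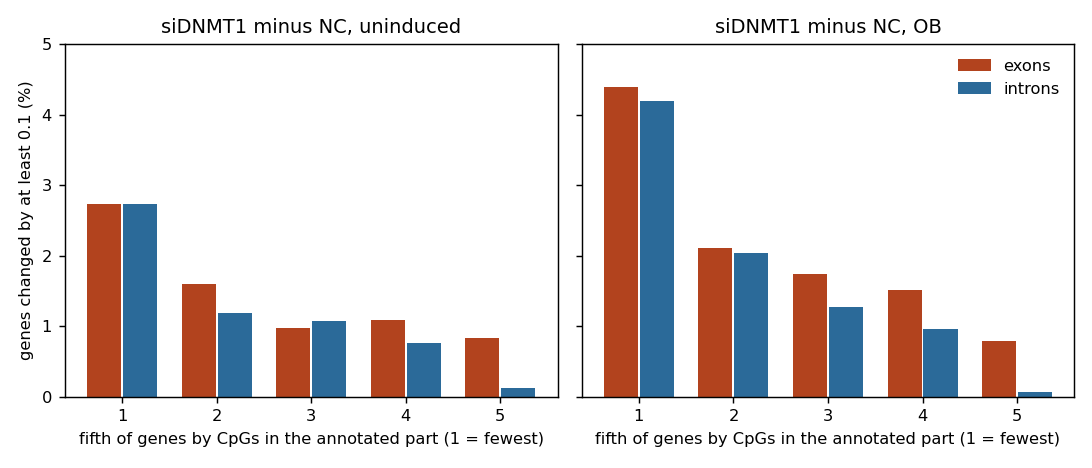
Percent of genes (y axis) whose exons or introns changed by at least 0.1 in either direction with siDNMT1, before induction (left) and in OB cells (right), in 5 equal groups of genes by the number of CpGs in that part (x axis, 1 the fewest). The bars drop from 2.74% and 4.38% in exons with the fewest CpGs to under 1% in those with the most, and further in introns.

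Genes of the DNA methylation machinery were all 12 present as pairs, and exons exceeded introns by at least 0.1 in all 4 libraries in 6 of them (50.0%, against 23.8% of all genes). Dnmt1, the target of the siRNA, had exon levels of 0.581, 0.581, 0.559 and 0.544 and intron levels of 0.453, 0.449, 0.450 and 0.411 in NC uninduced, siDNMT1 uninduced, NC OB and siDNMT1 OB cells. Dnmt3a, a de novo methyltransferase, had 0.552, 0.534, 0.536 and 0.518 in exons and 0.436, 0.411, 0.403 and 0.358 in introns. Both genes thus had the siDNMT1 OB library lowest in both parts, by small steps. Dnmt3b, the other de novo enzyme, was low in exons, between 0.0642 and 0.0938, and between 0.157 and 0.196 in introns. Dnmt3l, their cofactor, had exons between 0.696 and 0.737 and introns between 0.410 and 0.443. Uhrf1, which brings DNMT1 to new DNA strands, had exons between 0.782 and 0.805 and introns between 0.340 and 0.358, while its relative Uhrf2 was low in both, under 0.0290.

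The demethylating dioxygenases and the readers varied as much. Tet1 had exons between 0.668 and 0.695 and introns between 0.201 and 0.238, the largest gap of the list in favour of exons by the mean of the 4 libraries, as all gaps are ranked in these lists. Tet2 had 0.418 to 0.464 and 0.342 to 0.383, and Tet3 0.759 to 0.783 and 0.375 to 0.445. Mbd2, a protein that binds methylated CpGs, had the largest gap in favour of introns, with exons between 0.146 and 0.208 and introns between 0.718 and 0.745. Setd2, which marks transcribed gene bodies with H3K36 methylation, had exons between 0.00788 and 0.104 and introns between 0.529 and 0.604. In OB cells 10 of the 12 were lower with siDNMT1 in exons and 10 in introns, against 66.4% and 74.0% of all genes.

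Of 24 widely transcribed genes with a pair, 11 (45.8%) were low in both parts, against 15.5% of all genes. Cltc, the clathrin heavy chain gene, had the largest gap of this list, with exons between 0.00814 and 0.0243 and introns between 0.775 and 0.809, and Tubb5, a tubulin gene, the largest in the other direction, with exons between 0.453 and 0.586 and introns between 0.00594 and 0.0212. Reep5 had the largest exon changes, with levels of 0.125, 0.40, 0.765 and 0.438, while its introns stayed between 0.266 and 0.361. Of 19 mesenchymal genes 8 (42.1%) were high in both parts, against 18.9% of all genes. Timp2, a metalloproteinase inhibitor gene, had the largest gap there, with exons between 0.0173 and 0.0213 and introns between 0.493 and 0.536. Among 23 osteoblast genes 5 had exons above introns by at least 0.1 in all libraries (21.7%) and 6 the reverse (26.1%), close to the 23.8% and 27.9% of all genes. Ank, a pyrophosphate transporter gene, had exons between 0.158 and 0.203 and introns between 0.710 and 0.744. Dlx5, a homeobox gene of osteoblasts, had exons of 0.415, 0.340, 0.283 and 0.271 and introns of 0.541, 0.606, 0.587 and 0.675, and no osteoblast gene passed 0.1 in either siDNMT1 comparison. Between the NC libraries 21 of the 23 osteoblast genes were lower in exons and 19 in introns after induction, against 64.3% and 63.8% of all genes. This was not particular to the osteoblast list. Of the 19 mesenchymal genes 16 and 15 were lower, of the 17 chondrocyte genes 12 and 14, and of the 13 blood genes 6 and 6.

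The other lists are given with their largest gap and with the entries that changed by at least 0.1 with siDNMT1. Of 17 chondrocyte genes, Trps1 had the largest gap, with exons between 0.0166 and 0.0248 and introns between 0.451 and 0.461, and the introns of Col9a1, a cartilage collagen gene, were the single entry past 0.1, at 0.415, 0.313, 0.462 and 0.410. Of 13 adipocyte genes 7 (53.8%) were high in both parts, against 18.9% of all genes. The 13 include Cebpa and Fabp4, which have no intron in the gene models used, and Fabp4 is among the 7. Ebf1 had the largest gap, with exons between 0.0220 and 0.0261, and the introns of Slc2a4, the insulin-responsive glucose transporter gene, were the single entry past 0.1, at 0.549, 0.543, 0.491 and 0.593. Of 16 neuron genes, Dlg4 had the largest gap, with exons between 0.675 and 0.694, and the introns of Snap25, a gene of synaptic vesicle release, were the entry past 0.1, at 0.247, 0.274, 0.333 and 0.143. Of 7 liver genes, Fgg had exons between 0.733 and 0.769 and introns between 0.284 and 0.383, and the introns of Fga, which like Fgg encodes a fibrinogen chain, were at 0.430, 0.473, 0.509 and 0.380. Of 13 blood genes 6 had exons above introns in all libraries, and Lck, a T cell kinase gene, had exons between 0.717 and 0.756 and introns between 0.277 and 0.321. None of the 13 passed 0.1 in either siDNMT1 comparison. A last list held 13 genes, most of them named in the study for their methylation or their expression in these cells, so it is no independent evidence. Among them Itga8 had the largest gap, with exons between 0.147 and 0.159 and introns between 0.527 and 0.565.

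The 396 genes on X differed from the 15303 on autosomes in level and in change. Their median exon level was 0.422 and their median intron level 0.419, against 0.316 and 0.385. Between the NC libraries their exons rose with induction by a median of 0.0129 and their introns by 0.00824, whereas autosomal exons and introns changed by -0.00464 and -0.00573. Between the siDNMT1 libraries the medians on X were 0.00511 and 0.00113. With siDNMT1, X-linked exons changed by a median of -0.000306 before induction and -0.00803 in OB cells. Exons that changed by at least 0.1 made up 6.31% of X-linked genes and 1.33% of autosomal genes before induction, and 6.57% and 2.01% in OB cells.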

How the data were processed

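Bisulfite libraries of 4 conditions were read, 1 per condition, with conditions taken from the sample labels. The labels give reduced representation sequencing and also DNA sheared by sonication. The processing notes name Trimmomatic 0.36 for read filtering and Bismark 0.16.3 for alignment, on mm10. The values the authors deposited are fractions, from 0 to 1, of CpG cytosines read as methylated, 1 per region in 8 classes of regions. Their gene annotation, coverage minimum and weighting of cytosines are not given in the sources used here, and the authors' differentially methylated regions were not used here.

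Exon and intron levels were joined by Ensembl gene identifier. Of the 15709 genes, 15699 were found in GENCODE vM21, which gave symbols, positions and gene structure, and 81 have no intron there. These 81 were kept, among them Atf4, Cebpa and Fabp4 of the gene lists. CpGs were counted on the RefSeq copy of GRCm38, where all 14354 listed islands start and end with a CG once starts are counted from 0. Changes were counted from 0.1, and shares of genes were set beside those of all 151644 regions with a level in all 4 libraries. The functions were tested on simulated data.

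Genes and lists were chosen with earlier results of these data known. Named genes are protein-coding with at least 20 exonic and 20 intronic CpGs: the 6 with the largest gap in each direction by the smallest of 4 libraries, the first 4 per direction and siDNMT1 comparison whose exons and introns both changed by at least 0.1 (ranked by the smaller change), the first 3 with opposite changes of at least 0.05, the extremes of each gene list, and the genes of the methylation machinery, of which 1 is not reported here. Alternatives covered subsets of genes, centring, means and thresholds. Computation used pandas 2.3.3 with numpy 2.4.6 in Python 3.11.15, figures matplotlib 3.10.9, and intervals scipy 1.17.1.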

Additional observations from a re-analysis of the deposited data

Results flagged for a closer look

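Of the named and listed genes, 4 had an entry that changed by at least 0.1 in opposite directions in the 2 siDNMT1 comparisons. With 1 library per condition the difference was not tested, and each value below is the change in OB cells minus the change in uninduced cells. It was -0.602 for the exons of Reep5, 0.335 for the exons of Pgr15l and -0.30 for the exons of H2-Eb2. For Mybbp1a it was 0.506 in exons and -0.795 in introns. Over all 15709 genes 36 exons and 29 introns changed in opposite directions by this measure. In comparison, 16 exons and 15 introns fell in both comparisons, and 13 exons and 7 introns rose in both. Over all 151644 deposited regions 1.58% fell and 1.33% rose before induction, and 2.55% and 1.39% in OB cells. Regions that changed in both comparisons were not counted there, so these counts have no matching share. How far parts with few CpGs account for the counts was not tested.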

How the results depend on the processing

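Of 120 recomputed values, 62 stayed within the 95% interval of the reported median or share, or within 1.5 times the reported count, 48 moved further and 10 changed sign. Protein-coding genes only, and genes without identical levels, moved no value beyond these limits, although both took the genes with both parts lower in OB cells from 17 to 14. Each library was centred on its own median over the exons or introns with a level in all 4 libraries, which gives changes relative to that median. All 6 median changes then changed sign. Before induction they were 0.00110 in exons, 0.00252 in introns and -0.00257 for their difference, and in OB cells 0.00673, 0.00395 and -0.000674. Centring moved the share with the same direction in OB cells to 60.3% and the genes with both parts lower in OB cells to 8. Over genes with 1 annotated transcript, a set chosen after seeing the data, the median gap changed sign to 0.00141 in NC uninduced, 0.00107 in siDNMT1 uninduced, 0.00271 in NC OB and 0.00208 in siDNMT1 OB cells. The median changes moved to -0.00202 in exons and -0.00347 in introns before induction and -0.00875 in exons in OB cells, the exon change minus the intron change in OB cells to 0.00177, the shares with the same direction to 51.4% and 58.5%, and the genes with both parts lower or higher to 1 and 1 before induction and 1 and 3 in OB cells. Over genes that overlap no other gene, the median gap moved to -0.00156, -0.00160, -0.00207 and -0.000456 in the same order of libraries, the median intron change to -0.00359 before induction and -0.0114 in OB cells, the exon change minus the intron change in OB cells to 0.00192, and the genes with both parts lower or higher to 1 and 4 before induction and 8 and 3 in OB cells. Means in place of medians gave gaps of -0.0269, -0.0247, -0.0276 and -0.0236, changes of -0.00356 in exons, -0.00574 in introns and 0.00219 for their difference before induction, and -0.0108, -0.0148 and 0.0040 in OB cells. With at least 20 CpGs in either part the median gap moved to -0.00734 in siDNMT1 uninduced, -0.00887 in NC OB and -0.00721 in siDNMT1 OB cells. On autosomes the genes with both parts lower or higher before induction were 1 and 4. Counted from 0.05, genes with both parts lower or higher were 51 and 34 before induction and 189 and 32 in OB cells, and counted from 0.2 they were 0 and 1, and 1 and 2. A gap of at least 0.2 in all 4 libraries was found in 2158 genes in favour of exons and 2914 in favour of introns. The shares of changed entries rest on few CpGs in many genes, and without read counts the part of depth in them was not tested. No paired analysis was possible because each condition has 1 library.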
